A study of Mus musculus with 18 samples.

Results

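The 40 genes described here code for the enzymes of glycolysis (15 genes), the lactate dehydrogenases (2), transporters of glucose and lactate (3), the proteins that carry pyruvate into mitochondria and control its oxidation (9), the phosphofructokinase-2 enzymes (3), enzymes of glycogen storage and release (4) and regulators of the response to low oxygen (4). They were listed by name and function, with earlier results of these data known, and all 40 were found among the 51912 genes counted. They also all passed the filter of at least 10 read pairs over the libraries, which left 24495 genes for testing. RNA-Seq was carried out on primary cortical astrocyte cultures of hemizygous Aldh1l1-EGFP/Rpl10a mice, a line in which the Aldh1l1 promoter drives a GFP-tagged ribosomal protein, so that ribosome-bound RNA of Aldh1l1-expressing cells can be pulled down with GFP antibodies (translating ribosome affinity purification, TRAP, or IP). Every group carried the transgene. Cells pooled from male and female pups of postnatal day 0 were grown for 14 days, replated for 6 days and kept in serum-free medium for 24 h, and dishes were then kept for 24 h in the same medium with 0 mM (control) or 50 mM ethanol. The IP fraction was sequenced from 6 control and 6 ethanol dishes, and the input fraction, which is total RNA of the lysate before the pull-down, from 3 control and 3 ethanol dishes of the same set. Nothing in the labels says that the dishes came from separate cultures, so p-values measure the spread between dishes.

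Glycolysis splits glucose into pyruvate in the cytosol, and astrocytes are known in the brain for their glycolytic metabolism, for turning pyruvate into lactate that can be released to neurons, and for holding most of the brain's glycogen. Pyruvate that is not turned into lactate enters mitochondria through the pyruvate carrier and is oxidized by the pyruvate dehydrogenase complex, which pyruvate dehydrogenase kinases switch off and phosphatases switch on. Hypoxia-inducible factors, which prolyl hydroxylases mark for breakdown when oxygen is present, are known to raise transcription of many genes of this pathway.

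Each library held between 74239854 and 132810705 read pairs on genes. Levels below are read pairs of a gene scaled to a common library size (CPM, after TMM normalization) unless TPM (also divided by transcript length) is named, and a gene is called where its adjusted p in edgeR's quasi-likelihood test, over all genes tested, was below 0.05. Aldh1l1 averaged 374.7 CPM in IP and 181.4 CPM in input, and the summed level of 12 astrocyte markers was 2720 to 2930 CPM over the IP libraries against 1760 to 1840 CPM in input. The 10 microglial markers summed to 69.2 to 83.1 CPM in IP and 162 to 184 CPM in input, so both fractions held some RNA of cells other than astrocytes. With ethanol the microglial sum was 77 to 83.1 CPM against 69.2 to 75 CPM in control in IP, and 175 to 184 CPM against 162 to 169 CPM in input, so the groups did not overlap in either fraction. Of the 10 single markers, 9 had a positive log2 fold change with ethanol in IP and 4 in input, where the median was −0.039. In input the sum thus rose without a rise of most markers. In bulk RNA, fewer cells of a type and less RNA per cell cannot be told apart.

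The counting also set some levels. Read pairs were counted without regard to strand, and pairs over a gene on the other strand were dropped. Counted on the transcript strand alone, Mpc1 had 331.1% of its reported read pairs, Bnip3 233.8%, Pdha1 149.7% and Gpi1 126.9%. Aldoa had 119.2%, Hif1a 117.9%, Slc2a1 110.5% and Gys1 106.5%, so the levels of all these genes are underestimates. Slc16a3 had 86.67%, so its level is an overestimate. Pseudogene copies of at least 95% identity over 300 bases were found for 10 members, with 39 copies for Gapdh, 4 for Pgk1 and 3 each for Ldha and Bnip3, and read pairs that matched several places were left out. The values of these genes are uncertain to that extent.

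Since hypoxia-inducible factors and E-box proteins are known to act through short motifs near the start of such genes, promoters of 3 genes that fell and 3 genes that rose with ethanol, all without overlap between the IP groups, are shown, from 250 bases before to 50 bases after the RefSeq start site (GRCm38.p6). Capitals mark the letters ACGTG or GCGTG on either strand, the cores of the hypoxia response element, and CACGTG (an E-box) holds ACGTG on both strands. Hk2 lies at chr6:82725025-82774454 on the minus strand and its promoter at chr6:82774405-82774704. The promoters of Pgk1 (chrX:106186850-106187149), Pgam1 (chr19:41911621-41911920), Slc2a1 (chr4:119108495-119108794) and Slc16a1 (chr3:104638414-104638713) are on the plus strand, and that of Pdk4 (chr6:5496229-5496528) is on the minus strand.
Hk2: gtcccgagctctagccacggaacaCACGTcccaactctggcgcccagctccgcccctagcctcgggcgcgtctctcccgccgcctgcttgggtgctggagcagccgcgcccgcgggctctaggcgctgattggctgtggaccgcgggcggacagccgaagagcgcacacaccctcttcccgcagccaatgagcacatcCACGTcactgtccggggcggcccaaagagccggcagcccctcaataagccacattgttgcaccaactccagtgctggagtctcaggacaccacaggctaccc
Pgk1: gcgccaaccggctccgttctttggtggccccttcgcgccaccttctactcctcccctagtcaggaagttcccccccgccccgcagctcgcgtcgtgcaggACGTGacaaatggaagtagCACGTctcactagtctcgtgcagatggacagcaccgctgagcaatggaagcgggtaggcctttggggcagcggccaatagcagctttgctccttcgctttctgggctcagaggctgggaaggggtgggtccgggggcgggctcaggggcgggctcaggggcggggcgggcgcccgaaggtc
Pgam1: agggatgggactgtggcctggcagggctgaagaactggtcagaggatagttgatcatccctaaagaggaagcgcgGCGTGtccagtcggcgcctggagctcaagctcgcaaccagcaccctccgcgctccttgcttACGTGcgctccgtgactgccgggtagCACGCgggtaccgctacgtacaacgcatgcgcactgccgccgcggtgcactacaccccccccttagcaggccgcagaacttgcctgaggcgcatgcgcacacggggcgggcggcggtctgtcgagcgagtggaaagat
Slc2a1: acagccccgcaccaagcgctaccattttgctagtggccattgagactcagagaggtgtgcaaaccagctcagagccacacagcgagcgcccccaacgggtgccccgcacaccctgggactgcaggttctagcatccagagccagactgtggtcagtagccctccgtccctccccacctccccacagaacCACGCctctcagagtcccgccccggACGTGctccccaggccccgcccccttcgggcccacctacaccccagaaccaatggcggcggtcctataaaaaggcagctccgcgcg
Slc16a1: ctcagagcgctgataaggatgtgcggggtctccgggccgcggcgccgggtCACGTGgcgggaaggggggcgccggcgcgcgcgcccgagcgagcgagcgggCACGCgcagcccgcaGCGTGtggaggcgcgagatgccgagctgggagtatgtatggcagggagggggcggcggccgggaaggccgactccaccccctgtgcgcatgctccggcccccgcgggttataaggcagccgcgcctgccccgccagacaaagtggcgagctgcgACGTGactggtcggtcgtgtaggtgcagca
Pdk4: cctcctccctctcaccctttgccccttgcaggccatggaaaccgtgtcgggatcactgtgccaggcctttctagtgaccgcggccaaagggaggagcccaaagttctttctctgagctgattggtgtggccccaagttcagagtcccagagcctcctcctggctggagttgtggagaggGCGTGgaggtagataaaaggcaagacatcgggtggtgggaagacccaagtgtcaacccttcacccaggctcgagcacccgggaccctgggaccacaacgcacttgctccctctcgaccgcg
Pgk1 held 2 cores, at 150 and 131 bases before the start, and Slc2a1 held 2, at 61 and 36 bases before it. In Slc16a1 there were 5, of which the pair at 200 and 199 bases before the start is a single E-box. Both genes that rose and genes that fell held cores. RefSeq promoters were found for 39 of the 40 members, and 34 of those 39 genes (87.2%) held ACGTG or GCGTG in at least 1 window, against 46.7% of all 27025 genes with a window. The E-box CACGTG was in 8 of the 39 (20.5%), against 8.09% of all genes. The members' windows were richer in G and C, with a median of 61.2% against 52.7% over all windows, and a match is a run of letters and not a shown binding site.

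Levels differed by more than 3 orders of magnitude among the members. On the TPM scale, Ldhb (the lactate dehydrogenase subunit that prevails in heart) was the most abundant in IP control, at 2470 TPM, ahead of Aldoa (1760 TPM), Eno1 (1630 TPM), Pkm (1330 TPM) and Gapdh (974 TPM). Pygm, the muscle glycogen phosphorylase, was the lowest at 0.878 TPM, and Slc16a3, the lactate exporter MCT4 of strongly glycolytic cells, was next at 1.27 TPM. TPM here divides by the longest annotated transcript, which for Gapdh is 3289 bases, so the level of a gene read mainly from a shorter transcript is an underestimate. Among isozymes, Hk1 stood at 191 TPM and Hk2 at 16 TPM in IP control, Pygb at 299 TPM, and Pdk2, which made up 68.65% of the 4 pyruvate dehydrogenase kinases per length, stood above Pdk3 (30.1 TPM), Pdk4 (18.9 TPM) and Pdk1 (18.6 TPM). The libraries of Pdk4 and Pdk1 overlapped. Counted on the transcript strand, Mpc1 stood at 141 TPM in place of 46 TPM, and its place among the members moved from 25 to 16.

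**Figure D1:**
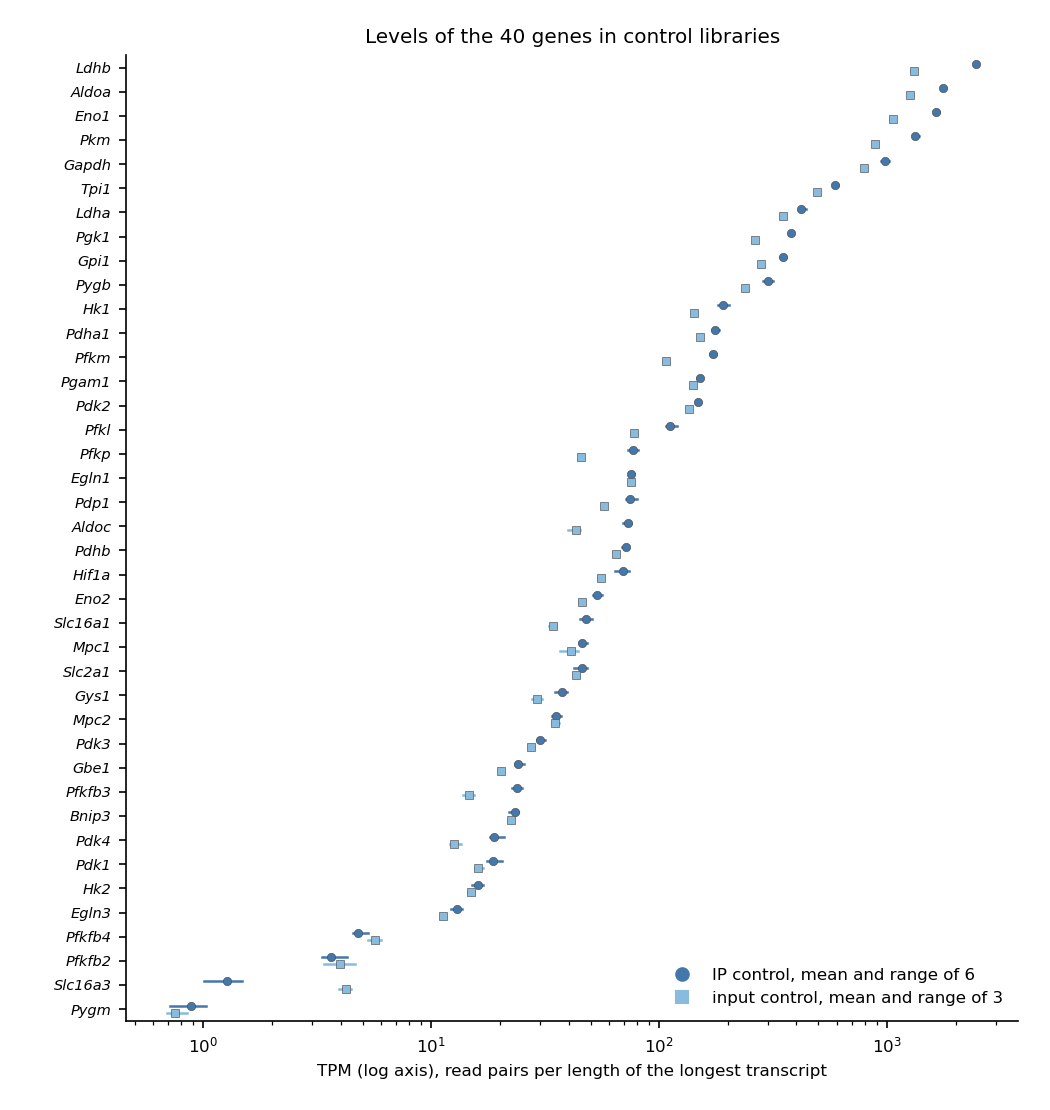
Mean TPM of the 40 genes in the 6 IP control and 3 input control libraries on a log axis, ordered by the IP level, with lines from the lowest to the highest library. Ldhb is at the top at 2470 TPM in IP, and Slc16a3 is the gene whose input level, 4.22 TPM, lies farthest above its IP level of 1.27 TPM.

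Most members were enriched in the ribosome-bound fraction. In IP vs. input, 30 members were higher in IP and 5 lower, while 25.2% of all genes tested were called higher and 25.8% lower. The median log2 fold change was 0.20 over the members and −0.028 over all genes. The groups did not overlap for 22 members, against 25% of all genes. By role, 13 of 15 glycolytic enzymes, both lactate dehydrogenases, 7 of 9 pyruvate genes and all 4 glycogen enzymes were higher in IP. Since IP and input share dishes, a fit blocked by dish was also made, on the 12 libraries whose dishes gave both fractions. In it Pdhb (0.047), Pdk3 (0.075) and Pygm (0.33) were no longer called. These genes also lost their calls in a fit of the same 12 libraries without the block. Astrocyte markers were higher too, with a median log2 fold change of 0.61 over 12. Neuronal markers had a median of 0.337, with 6 of 10 called higher and 1 lower. Oligodendrocyte lineage markers had a median of 0.0105, with 5 of 10 called higher and 4 lower. The part of these markers in the members' enrichment was not tested.

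Ldhb showed the largest enrichment. Its levels ran from 1029 to 1219 CPM (median 1175) over the 12 IP libraries and from 615.8 to 696.7 CPM (median 648.9) over the 6 input libraries. No IP library came near the input range, and the log2 fold change was 0.83 ± 0.020 (SE). Aldoc, the brain aldolase and a marker of astrocytes, had 70.1 to 82.9 CPM (median 76) in IP and 43.2 to 49.1 CPM (median 45.1) in input, a log2 fold change of 0.72 ± 0.028. Pfkp, the platelet-type phosphofructokinase, had 234.1 to 257.1 CPM (median 248.1) in IP and 147.6 to 159.2 CPM (median 155.3) in input, a difference of 0.69 ± 0.020 on the log2 scale. For Pfkfb3, which makes the activator of phosphofructokinase fructose-2,6-bisphosphate, the IP levels were 41 to 47.3 CPM (median 43.9) and the input levels 26.6 to 28.7 CPM (median 27.8), a log2 fold change of 0.67 ± 0.027. All 4 genes were separated between the fractions in every library.

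Slc16a3 went the other way. It had 1.62 to 2.41 CPM (median 2.13) in IP and 5.81 to 7.54 CPM (median 6.88) in input, a log2 fold change of −1.74 ± 0.065, so that IP held 0.299 of the input level. On the transcript strand alone Slc16a3 had 1.25 to 1.68 CPM in IP and 5.18 to 6.81 CPM in input. Over all alternative settings its log2 fold change ran from −2.015 to −1.71. Microglial markers were depleted likewise: 9 of 10 were lower in IP, with a median log2 fold change of −2.43, and Csf1r, which defines microglia, was at 4.23 CPM in IP and 25 CPM in input. Hk3, the hexokinase of blood cells and not a member, averaged 1.68 CPM in IP and 6.15 CPM in input. Of 9 fibroblast and meningeal markers 5 were lower and 3 higher in IP, with a median log2 fold change of −1.15. Of 9 endothelial and mural markers 4 were lower and 2 higher, with a median of −0.235. The part of RNA of any of these cell types in the differences of Slc16a3 and Hk3 was not tested. The other lactate transporter, Slc16a1 (MCT1), was higher in IP by 0.44 ± 0.023, and Slc2a1 (GLUT1), the main glucose transporter of astrocytes and brain endothelium, differed by 0.0060 ± 0.024 on the log2 scale. Of the remaining members, Pfkfb4 (−0.27 ± 0.050), Pfkfb2 (−0.15 ± 0.053), Mpc2 (−0.094 ± 0.024) and Egln1 (−0.064 ± 0.020) were lower in IP. Hk2, Pgam1, Mpc1 and Bnip3 were not called. On the transcript strand alone Mpc1 was called lower in IP, at −0.13, and Bnip3 at −0.089. Tested against a fold of 1.2, 14 members were higher and 1, Slc16a3, was lower.

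**Figure D2:**
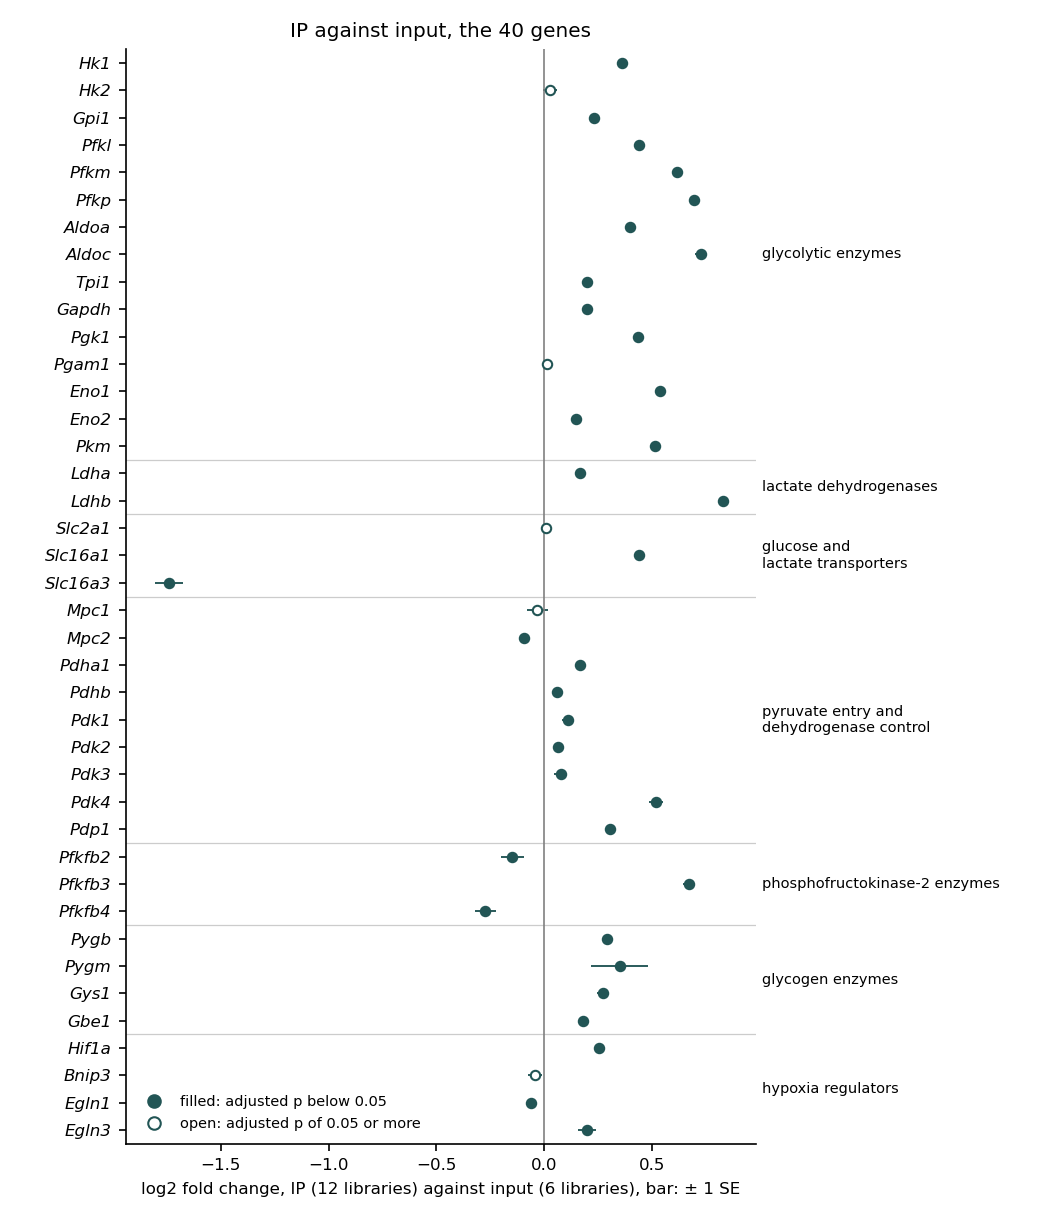
Log2 fold change of IP (12 libraries) against input (6 libraries) for the 40 genes by role, with bars of 1 SE and filled points for an adjusted p below 0.05. Most points lie to the right of 0, Ldhb farthest at 0.83, while Slc16a3 lies farthest to the left at −1.74, well below the next, Pfkfb4, at −0.27.

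Ethanol was compared with control within each fraction to ask which genes it changed in ribosome-bound and in total RNA. In IP, 8 of the 40 members rose and 11 fell, against 11.9% of all genes called higher and 9.48% called lower. In input, 6 rose and 14 fell, against 7.21% and 7.78% of all genes. The groups did not overlap for 8 members in IP, against 9.96% of all genes, and for 22 in input, against 27.1%. The median log2 fold change over the members was −0.021 in IP and −0.060 in input, and over all genes 0.0054 and −0.00092. Every change was small, and tested against a fold of 1.2 no member was called in IP or in input, as against 95 and 55 of all genes.

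In both fractions 6 members rose (Gpi1, Slc2a1, Slc16a1, Pdk1, Pdk4 and Pygb) and 8 fell (Hk2, Aldoa, Tpi1, Gapdh, Pgk1, Pgam1, Eno1 and Ldhb). Over all 24495 genes tested, 1303 rose and 1343 fell in both fractions. No member was called in opposite directions, as were only 3 of all genes. In IP alone Pfkm and Pfkfb3 were called higher, and Mpc1, Mpc2 and Gys1 lower. In input alone 6 were called lower, namely Aldoc, Eno2, Pdha1, Pdp1, Hif1a and Egln3. Over all genes, 1605 were called higher and 979 lower in IP alone, and 464 higher and 559 lower in input alone. A call in 1 fraction alone does not show that the fractions differ, and that difference is tested further on.

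**Figure D3:**
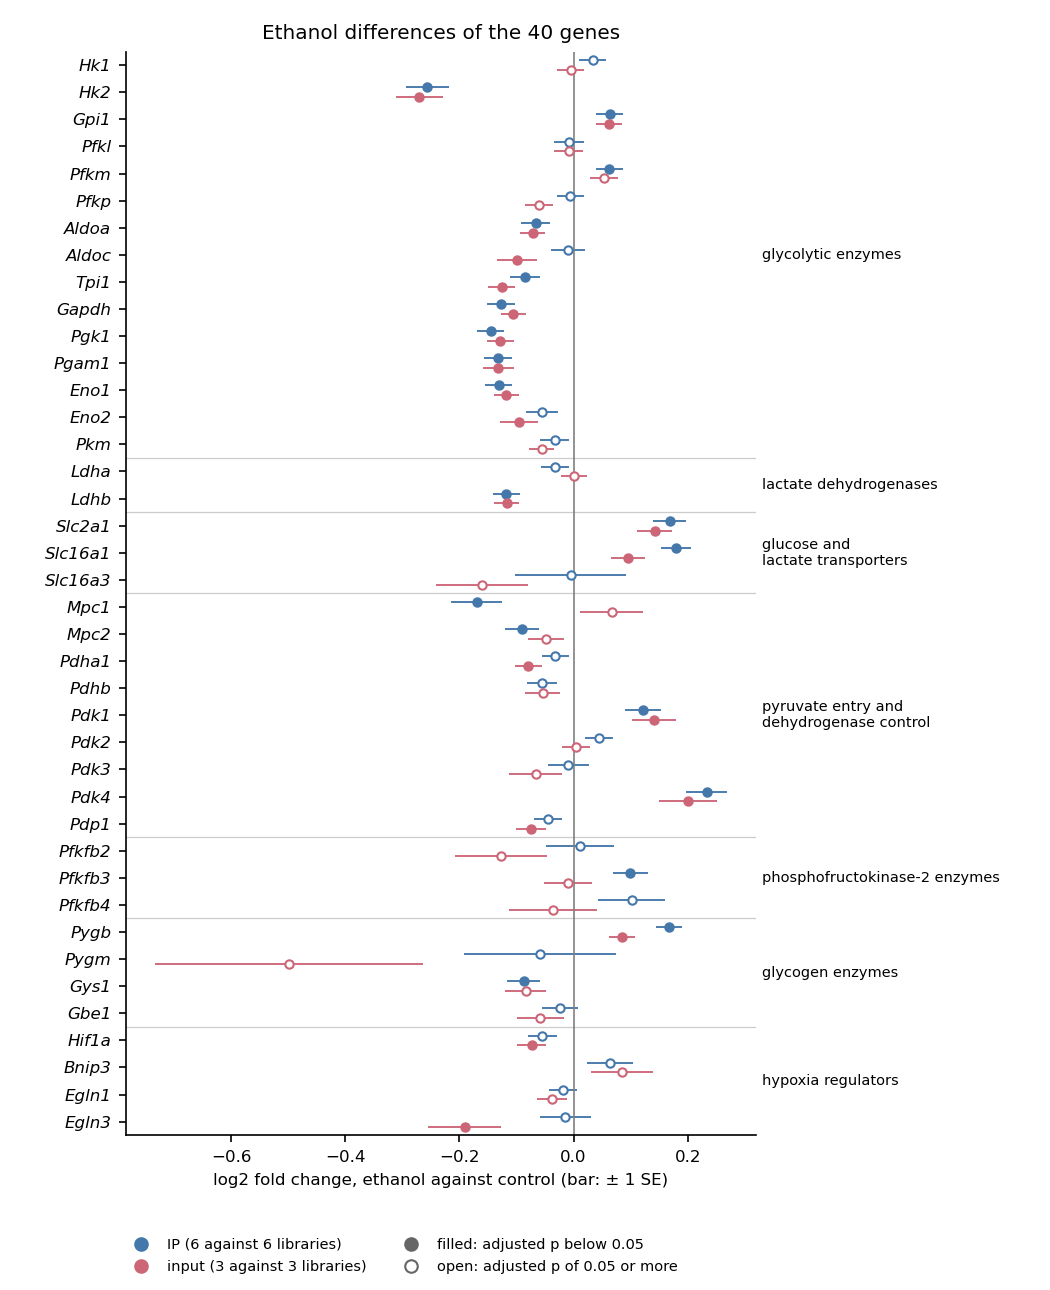
Log2 fold change of ethanol against control for the 40 genes by role in IP (6 against 6 libraries) and input (3 against 3), with bars of 1 SE and filled points for an adjusted p below 0.05. From Aldoa to Eno1 every point lies left of 0, and Slc2a1, Slc16a1, Pdk1, Pdk4 and Pygb lie right of 0 in both fractions.

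Among the glycolytic enzymes, 2 of 15 rose and 7 fell in IP, and 1 rose and 9 fell in input. That is 60% called in IP and 66.7% in input, against 21.4% and 15% of all genes. Hexokinases trap glucose in the cell as glucose-6-phosphate, and Hk2, the inducible form, fell most. Its IP levels were 31.1 to 34.8 CPM (median 33.1) in control and 24.5 to 29.4 CPM (median 28) with ethanol. In input they were 31.8, 33.1 and 32.8 CPM in control and 26.1, 28.9 and 26.2 CPM with ethanol. The groups did not overlap in either fraction, and Hk2 fell by 16.3% in IP (log2 fold change −0.26 ± 0.037, adjusted p = 4.07e-07) and by 17.1% in input (−0.27 ± 0.041, adjusted p = 3.19e-09). Hk1, the constitutive form, was not called, at 0.033 ± 0.024 in IP and −0.0052 ± 0.023 in input.

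The next enzymes of the chain did not move together. Gpi1, which turns glucose-6-phosphate into fructose-6-phosphate, was called higher in both fractions. Its input levels were 354.1, 351.8 and 359.2 CPM in control and 372.4, 365.9 and 376.7 CPM with ethanol, which did not overlap, while its IP levels of 404.3 to 430.1 and 411.4 to 455.5 CPM did. The log2 fold change was 0.063 ± 0.024 in IP and 0.062 ± 0.023 in input. Pfkm, the muscle-type phosphofructokinase, was called in IP at 0.062 ± 0.024. Both IP calls were lost under 18 of 22 alternative settings, and the Gpi1 call in input under 7 of 15. Pfkl and Pfkp, the liver and platelet types, were not called in either fraction.

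In the lower part of the pathway, where triose phosphates are turned into pyruvate, most genes fell. Pgk1, phosphoglycerate kinase, which makes the first ATP of glycolysis, had 255.3 to 264.1 CPM (median 260.3) in control IP and 228.7 to 245.8 CPM (median 231.4) with ethanol. Its input levels were 191.9, 189.1 and 190.6 CPM in control and 175.7, 171.7 and 176.9 CPM with ethanol. The groups did not overlap in either fraction, and Pgk1 fell by 9.6% in IP (−0.15 ± 0.023, adjusted p = 1.58e-06) and 8.52% in input (−0.13 ± 0.023). Pgam1, phosphoglycerate mutase, had 98.7 to 103.1 CPM (median 100.8) in control IP and 89.6 to 93.4 CPM (median 91.4) with ethanol. In input it had 99.3, 98.5 and 100.5 CPM in control and 89.7, 89.9 and 93.6 CPM with ethanol. Pgam1 fell by 8.81% in IP and fell by 8.72% in input, again without overlap.

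Eno1, Gapdh and Tpi1 of this stretch also fell in both fractions but overlapped between the groups in IP. Eno1, the common enolase, had 1185 to 1293 CPM (median 1238) in control IP and 1069 to 1194 CPM (median 1130) with ethanol, and 828.4, 853.1 and 865.9 against 785.6, 790.6 and 777.9 CPM in input. Gapdh, which reduces NAD+ in glycolysis and is often used as a reference gene, had 1124 to 1252 CPM (median 1206) in control IP and 1024 to 1145 CPM (median 1097) with ethanol. In input Gapdh had 1043, 1023 and 1048 CPM in control and 973.4, 955.3 and 971.8 CPM with ethanol, so that it fell by 8.43% in IP and 7.08% in input. For Tpi1, triose phosphate isomerase, the input levels were 312.8, 310.7 and 321.4 CPM in control and 290.8, 287.8 and 289.4 CPM with ethanol, and the IP levels 344.6 to 369.9 and 307.8 to 361 CPM. These 3 genes fell by 0.085 to 0.13 on the log2 scale in IP and by 0.11 to 0.13 in input. Aldoa, the main aldolase, had 761.9, 782.5 and 783.6 CPM in control input and 731.7, 745.7 and 744 CPM with ethanol, and its fall in IP (−0.067 ± 0.025) was lost under 9 of 22 alternative settings.

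Eno2, the enolase of neurons, was called in input, where it had 51.6, 50.9 and 49.8 CPM in control and 47.7, 46.4 and 48.9 CPM with ethanol, and not in IP (−0.055 ± 0.028). The Eno2 input call was lost under 8 of 15 alternative settings. Aldoc was called in input at −0.099 ± 0.034, with overlap, and this call was lost under 9 of 15 alternative settings. Pkm, pyruvate kinase, which ends the pathway, was not called in either fraction, at −0.033 ± 0.026 in IP and −0.056 ± 0.022 in input.

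Of the lactate dehydrogenases, which turn pyruvate and lactate into each other, Ldhb fell and Ldha was not called. Ldhb had 1181 to 1219 CPM (median 1209) in control IP and 1029 to 1169 CPM (median 1096) with ethanol. In input it had 662.2, 671.3 and 696.7 CPM in control and 625.2, 615.8 and 635.5 CPM with ethanol. The groups were apart in both fractions, and Ldhb fell by 7.85% in IP (−0.12 ± 0.024, adjusted p = 9.35e-05) and fell by 7.82% in input (−0.12 ± 0.022). Ldha, the subunit that prevails in muscle and that hypoxia raises, differed by −0.032 ± 0.024 in IP and 0.00028 ± 0.023 in input.

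Of the 3 transporters, 2 rose in both fractions, where 21.4% of all genes were called in IP and 15% in input. Slc2a1 had 52.7 to 58.6 CPM (median 56.5) in control IP and 60 to 65.8 CPM (median 61.6) with ethanol. In input its levels were 55.1, 56.8 and 55.6 CPM in control and 61.9, 60.4 and 63.1 CPM with ethanol. Every ethanol library was above every control library of its fraction, and Slc2a1 rose by 12.4% in IP (0.17 ± 0.029, adjusted p = 9.19e-06). The rise in input was 10.3% (0.14 ± 0.031). Slc16a1, which carries lactate and other monocarboxylates across the cell membrane, had 75.6 to 81.7 CPM (median 80) in control IP and 85 to 93.3 CPM (median 89.1) with ethanol. In input it had 57.9, 60.7 and 60.8 CPM in control and 65.7, 62 and 64.6 CPM with ethanol. It rose by 13.2% in IP and 6.84% in input, without overlap, and the input call (adjusted p = 0.0154) was lost under 5 of 15 alternative settings. Slc16a3 was not called, and with 1.62 to 2.41 CPM in IP its standard error of 0.098 was several times that of the abundant genes.

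Of the 9 genes of pyruvate entry and oxidation, 2 rose and 2 fell in each fraction. That is 44.4% called, against 21.4% of all genes in IP and 15% in input. Mpc1 and Mpc2, the subunits of the mitochondrial pyruvate carrier, were called lower in IP, at −0.17 ± 0.045 and −0.091 ± 0.030, and neither was called in input (0.067 ± 0.055 and −0.048 ± 0.032). Mpc1 was at 16 to 17.3 CPM in control IP and 12.8 to 16.6 CPM with ethanol, with overlap. On the transcript strand alone its log2 fold change in IP was −0.12 and was still called. The Mpc1 call was lost with GC and length trends removed (−0.090) and in the dishes with an input library (−0.085). Pdha1, the E1 alpha subunit of the pyruvate dehydrogenase complex, was called in input, with 171.1, 167.6 and 171.4 CPM in control and 162.5, 159.2 and 162.4 CPM with ethanol, but not on the transcript strand alone. Pdhb, the E1 beta subunit, was not called in either fraction.

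Of the 4 kinases that switch the complex off, Pdk4 and Pdk1 rose in both fractions. Pdk4, the isoform known to rise with fasting and fat oxidation, had 23.5 to 27.1 CPM (median 24.1) in control IP and 27.7 to 31.1 CPM (median 28.4) with ethanol. In input it had 16.7, 18.4 and 17 CPM in control and 18.6, 20.9 and 20.5 CPM with ethanol. Its rise of 17.5% in IP (0.23 ± 0.036, adjusted p = 8.60e-07) was the largest of the members there, and in input it was 14.9% (0.20 ± 0.051, adjusted p = 0.00115). Pdk1, the isoform known as a target of hypoxia-inducible factor, had 32.7, 34.2 and 32.4 CPM in control input and 35.5, 37.7 and 36.7 CPM with ethanol, and 34 to 38.7 and 37.8 to 40 CPM in IP, where 1 control library overlapped. Pdk1 rose by 8.78% in IP and 10.2% in input. Pdk2 and Pdk3 were not called. Pdp1, a phosphatase that switches the complex on, was called lower in input, from 96.1, 96 and 94.6 CPM to 91.1, 89.8 and 92.1 CPM, a call lost under 7 of 15 alternative settings, and was not called in IP (−0.044 ± 0.025).

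Of the phosphofructokinase-2 enzymes, which set the level of fructose-2,6-bisphosphate, Pfkfb3 was called higher in IP, at 0.099 ± 0.030 (adjusted p = 0.0108), with 41 to 44.7 CPM in control and 43.6 to 47.3 CPM with ethanol. The Pfkfb3 call was lost under 5 of 22 alternative settings, among them without IP control replicate 1 (0.083) or IP ethanol replicate 3 (0.081), and the value was lowest in the dishes with an input library (0.044). It differed by −0.010 ± 0.042 in input. Pfkfb2 and Pfkfb4, at 5 to 9 CPM, were not called in either fraction.

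Glycogen phosphorylase and glycogen synthase moved in opposite directions in IP. Pygb, the brain phosphorylase, which releases glucose-1-phosphate from glycogen, had 427.5 to 449.7 CPM (median 439.3) in control IP and 474.9 to 502.5 CPM (median 491.8) with ethanol. In input it had 364.2, 367.4 and 370.1 CPM in control and 392.4, 384.9 and 393.8 CPM with ethanol. The groups did not overlap in either fraction, and Pygb rose by 12.3% in IP (0.17 ± 0.023, adjusted p = 4.16e-08). The input rise was 6% (0.084 ± 0.023, adjusted p = 0.00264). Gys1, the glycogen synthase outside liver, had 49.1 to 53.1 CPM (median 52.4) in control IP and 46.9 to 49.6 CPM (median 48.2) with ethanol. It fell by 5.87% in IP (−0.087 ± 0.029, adjusted p = 0.0211) with slight overlap, and in input it differed by −0.084 ± 0.036 without a call. Gbe1, the branching enzyme, was not called in either fraction. Pygm had 0.787, 0.952 and 0.816 CPM in control input and 0.402, 0.567 and 0.859 CPM with ethanol, a difference of −0.50 ± 0.24 that was not called.

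**Figure D4:**
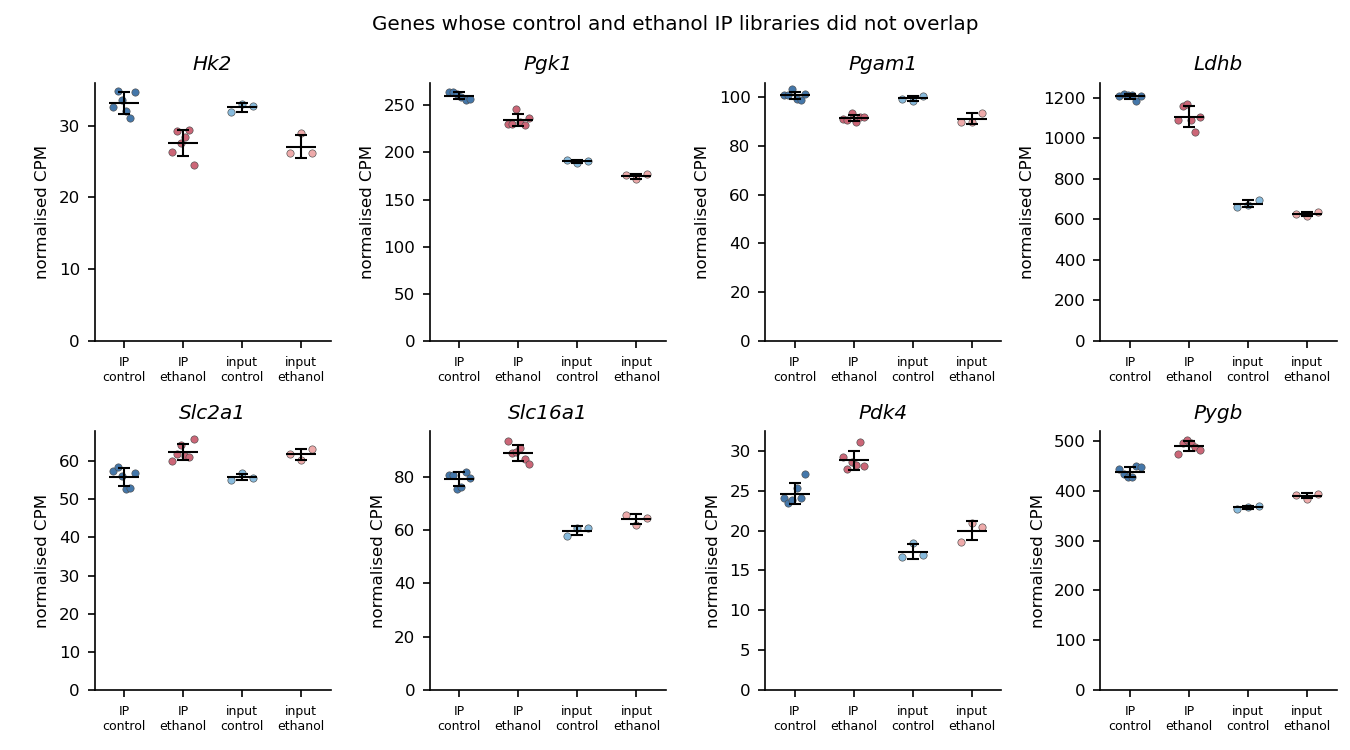
Normalised CPM in each library of the 8 genes that were called with ethanol in IP and whose IP groups did not overlap, with axes from 0 and bars for the mean ± SD of each group. Hk2, Pgk1, Pgam1 and Ldhb are lower and Slc2a1, Slc16a1, Pdk4 and Pygb higher with ethanol in both fractions, by shifts that are small beside the level itself.

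None of the 4 hypoxia regulators was called in IP, where 21.4% of all genes were. In input Hif1a, the oxygen-regulated subunit of hypoxia-inducible factor, was called lower at −0.074 ± 0.026 with overlap, a call lost under 7 of 15 alternative settings. Egln3, the prolyl hydroxylase that hypoxia induces, had 11.9, 11.9 and 12.1 CPM in control input and 11.4, 10.4 and 9.57 CPM with ethanol. Its difference of −0.19 ± 0.064 in input (adjusted p = 0.0234) was also lost under 7 of 15 settings, and in IP it was −0.014 ± 0.045. Egln1, the main prolyl hydroxylase, was not called. Bnip3, a mitophagy receptor and hypoxia target, differed by 0.064 ± 0.040 in IP and 0.085 ± 0.054 in input, without a call. On the transcript strand alone, which recovers more than double its read pairs, the input difference was 0.12 and was called (adjusted p = 0.00855).

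To ask whether ethanol acted differently in the fractions, an interaction term was fitted to all 18 libraries. By edgeR no gene was called (0% of 24495), with 1459 genes and 3 members at an unadjusted p below 0.05, and DESeq2 called 4 genes. A fit blocked by dish, on the 12 libraries whose dishes gave both fractions, called 102 genes (0.416%) and no member. The members at an unadjusted p below 0.05 were Mpc1 (−0.25 ± 0.081, lower with ethanol in IP relative to input), Egln3 (0.16 ± 0.079) and Pygb (0.071 ± 0.036). In that blocked fit, the 95% interval of the difference on the log2 scale was −0.286 to 0.0142 for Mpc1, −0.0152 to 0.321 for Egln3 and 0.0127 to 0.141 for Pygb. For Hk2 it was −0.0747 to 0.16, for Pgk1 −0.069 to 0.0687 and for Ldhb −0.0875 to 0.0328. The intervals of Hk1 (0.000977 to 0.135), Slc16a3 (0.0319 to 0.595), Pygm (0.0305 to 1.2) and Pygb lay above 0, though none of the 4 genes passed the adjusted test.

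The balance between isozymes was followed as the share of each gene in the read pairs per transcript length of its isozyme group, with an exact two-sided permutation test over libraries adjusted over 13 shares in each fraction. In IP, 4 shares differed with ethanol. The Hk1 share of Hk1 and Hk2 was 92.26% ± 0.122 (SD, n = 6) in control and 93.58% ± 0.357 with ethanol, and the Pfkm share of the 3 phosphofructokinases 47.79% ± 0.5002 and 48.99% ± 0.296. In the exact permutation test each had p = 0.00217, the smallest that 6 against 6 libraries can give (adjusted p = 0.0141). The Ldhb share of the lactate dehydrogenases was 85.49% ± 0.248 in control and 84.72% ± 0.348 with ethanol, and the Pdk4 share of the 4 kinases 8.76% ± 0.416 and 9.87% ± 0.504 (exact permutation p = 0.00433 and adjusted p = 0.0141 for both). These shifts of about 1 percentage point repeat the changes of the single genes and are not independent of them. The other 9 shares were not called in IP.

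In input the smallest p of the exact permutation test was 0.1, so no share could be called. The direction was as in IP for Hk1 (90.5% ± 0.105 in control and 91.97% ± 0.509 with ethanol, n = 3 each), Pfkm (46.41% and 47.8%), Ldhb (78.99% and 77.61%) and Pdk4 (6.56% and 7.44%). Some shares also differed between the fractions. The Ldhb share in control was 85.49% in IP and 78.99% in input, and the Slc16a3 share of the lactate transporters was 2.60% in IP and 11.02% in input.

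**Figure D5:**
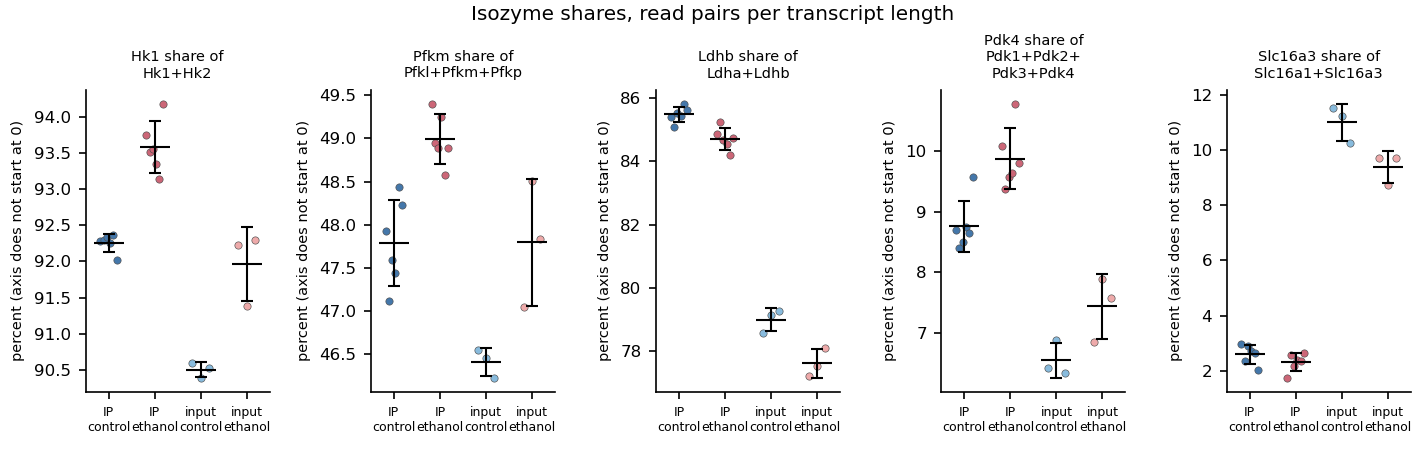
Share in percent of 5 genes in their isozyme group by library, from read pairs per transcript length, with bars for the mean ± SD of each group and axes that do not start at 0. The Hk1, Pfkm and Pdk4 shares are higher and the Ldhb share lower with ethanol in IP, and the Slc16a3 share separates input (8 to 12%) from IP (2 to 3%).

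Beyond the 40 genes, 103 other genes of these and neighbouring pathways were found, of which 101 were tested. In IP 15 of them rose and 19 fell with ethanol, and in input 11 rose and 16 fell. That is 33.7% called in IP and 26.7% in input, against 21.4% and 15% of all genes. The tricarboxylic acid cycle, which oxidizes the acetyl groups made from pyruvate, moved in 1 direction: 12 of its 16 genes fell in IP and 10 in input, and none rose. The median log2 fold change of the cycle genes was −0.093 in IP and −0.085 in input. Fh1 (fumarate hydratase), Suclg1 (a subunit of succinyl-CoA synthetase) and Idh3a (a subunit of isocitrate dehydrogenase) fell most in IP, by 0.15, 0.14 and 0.14 on the log2 scale. Fh1, for example, averaged 78.6 ± 1.57 CPM (SD, n = 6) in control IP and 70.3 CPM with ethanol. In IP vs. input, 14 of the 16 were higher in IP, against 25.2% of all genes. Of the 5 other genes of the pyruvate dehydrogenase complex only Dld, its dihydrolipoamide dehydrogenase, was called, at −0.068 in IP.

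Of 14 other glycolysis genes tested, 1 rose and 1 fell in each fraction, or 14.3%, which is at or below the share over all genes. In input Bpgm, which makes and degrades 2,3-bisphosphoglycerate, fell (−0.11 ± 0.028) and Me1, cytosolic malic enzyme, rose (0.089 ± 0.025). Of 10 other sugar and lactate transport genes, 40% were called in IP and 30% in input, against 21.4% and 15% of all genes. In IP 4 rose, among them Slc2a8 (0.18 ± 0.040) and Slc2a3, a high-affinity glucose transporter (0.14 ± 0.043). In input 2 rose, among them Emb (0.31 ± 0.092, at 5.05 CPM), which also rose in IP (0.25 ± 0.074). Bsg, a chaperone of the lactate transporters, fell in input (−0.061 ± 0.022) and was not called in IP (−0.013 ± 0.024). Of 23 other glycogen genes, 4 rose and 1 fell in IP (21.7%), and 3 rose in input (13%), shares close to those over all genes. Phkg2, a catalytic subunit of the kinase that activates glycogen phosphorylase, rose in both fractions (0.12 ± 0.036 and 0.16 ± 0.050), and Pgm1 fell in IP (−0.12 ± 0.033). These symbols are those of the deposited counts, where Pgm1 is ENSMUSG00000029171 and Pgm2 is ENSMUSG00000025791, and other sources may name the 2 genes otherwise. Pgm2, given for comparison, had 101.1 CPM in IP against 27.07 CPM for Pgm1. Pgm2 was not called in IP (0.018 ± 0.026) or in input (0.0032 ± 0.029).

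Of 19 other hypoxia genes, 4 rose and 3 fell in each fraction, so the list had no common direction. That is 36.8% called, against 21.4% of all genes in IP and 15% in input. Mxi1, a repressor of Myc activity, rose in both (0.18 ± 0.031 and 0.21 ± 0.031), as did Kdm3a, a histone demethylase induced by hypoxia (0.16 ± 0.028 and 0.12 ± 0.031). Higd1a, a mitochondrial protein induced by hypoxia, fell by 0.22 in IP and by 0.18 in input on the log2 scale. Adm, the peptide adrenomedullin, fell by 0.13 in each fraction. Beside these changes, 2 of 10 microglial markers (20%) rose in each fraction and none fell. The share of all genes called was 21.4% in IP and 15% in input, so these counts were near it. The median log2 fold change of that list was 0.091 in IP, with 9 of 10 positive, and −0.039 in input, with 4 of 10 positive. Of 12 astrocyte markers, 5 rose and 1 fell in IP (50% called), and 5 rose and 4 fell in input (75% called). Those that fell in input included Aldh1l1 itself (−0.13 ± 0.023) and Aldoc, which is in both lists. The astrocyte sum was 2840 to 2930 CPM with ethanol against 2720 to 2830 CPM in control in IP. The part of these markers in the members' changes was not tested.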

How the data were processed

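RNA-Seq libraries (Illumina Stranded Total RNA with Ribo-Zero Plus) of 18 samples were used. The authors trimmed reads with Trimmomatic, aligned them with STAR to GRCm38 and deposited raw counts of read pairs per gene, without regard to strand (versions not given in the sources used here). The counts table matched the single-library files in every value, and 26 gene symbols, which a spreadsheet had rewritten as dates, were put back. On average 3.60% of pairs mapped to several places and 5.50% were ambiguous, and neither is in the counts.

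Genes with at least 10 read pairs over all libraries were tested with edgeR 4.0.16 (R 4.3.3; TMM, robust quasi-likelihood fit), with Benjamini-Hochberg adjustment over 24495 genes and a threshold of 0.05. Ethanol was compared with control within each fraction, IP vs. input over 18 libraries with a treatment term, and the difference of the ethanol effects as an interaction. DESeq2 1.42.0, other scalings and filters, strand-specific counts, GC and length trends, blocks and leaving out each library were alternatives. Standard errors were derived from the log2 fold change and the F statistic of the test. The test was checked on simulated data, with recovery required only at a fold larger than any ethanol change of a member.

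The 40 genes and the lists of pathway and marker genes were chosen with earlier results of these data known. Full values are given for members called without overlap between groups and for the 5 largest differences between the fractions, and other pathway genes are named by size of change at 5 CPM or more. Same-numbered IP and input libraries came from 1 dish, a true pair (correlations of their deviations 0.034 to 0.206). Between control and ethanol, the labels do not say that the numbers pair dishes, and the correlations (−0.149 to 0.399 in IP) do not decide it. The main tests did not block by number. Promoters and annotation were from RefSeq (GRCm38.p6) and GENCODE M21, and near-identical copies were found with BLAST+ 2.17.0. No authors' test results were used.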

Additional observations from a re-analysis of the deposited data

Results flagged for a closer look

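In 2 of 80 groups of libraries tested, 1 library stood apart from the others of its group, which chance gives in about 1 of 20 groups. Hk1 was at 326.3 CPM in IP ethanol replicate 2 and next at 310.7 CPM, a gap that was 0.808 of the range of the 6 libraries, above the limit of Dixon's test. Ldhb was at 1181 CPM in IP control replicate 5 and next at 1206 CPM, a ratio of 0.662.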

How the results depend on the processing

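No value of a member turned its direction under any alternative where it was called. The count of genes called was 5233 in IP, 3672 in input and 12498 in IP vs. input. Limited to the dishes with an input library, IP gave 4 members higher in place of 8. Against a fold of 1.2, 95 genes, 0 members higher and 0 lower remained in IP, 55 genes, 0 and 0 in input, and 4936 genes, 14 and 1 in IP vs. input. The difference of the ethanol effects had 0 genes in edgeR, 4 in DESeq2, 102 with the replicate block by dish and 50 with that block and GC and length trends removed.

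Leaving out each library gave a count of 4616 to 5244 genes in IP, with 5 to 8 members higher (5 without IP control replicate 1 or IP ethanol replicate 3) and 8 to 12 lower. In input it gave 2861 to 3164 genes, 4 to 6 members higher and 8 to 13 lower (8 without ethanol replicate 5, 9 without control replicate 5 or 6). In IP vs. input it gave 12069 to 12503 genes, and for the difference of the effects 0 to 1 (1 without IP ethanol replicate 3). The replicate block gave 5782 genes with 8 and 11 members in IP, 3829 with 6 and 15 in input, and, by dish, 11659 with 27 and 5 in IP vs. input. Over the single members and alternatives, 72 of their tests in IP, 69 in input and 42 in IP vs. input no longer passed, and 10, 10 and 3 passed that had not. These counts, and the counts of settings under which a call was lost, include the test against a fold of 1.2. That test asks for a larger change, and no member passed it with ethanol. The cause of the other changes of call was not tested. Of the isozyme shares, the Pdk3 share in IP was called without division by length (−0.65 percentage points), the Pfkl, Eno2 and Pdk1 shares without IP control replicate 5 (−1.04, 0.212 and 0.502), the Pdk3 share without IP ethanol replicate 1 (−0.782) and the Eno2 share without IP ethanol replicate 3 (0.21). With the length of all exons, an alternative chosen after seeing the data, the Hk1 share in input differed by 2.34 points. The input call of Slc16a1 was lost without control replicate 4, ethanol replicate 4 or ethanol replicate 6, with log2 fold changes from 0.072 to 0.12 over all settings. Scaled by total counts, IP vs. input gave 25 members higher and 6 lower, with a median of −0.078 over all genes. Depth limited Pygm and Slc16a3, the members with the fewest read pairs.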

Other observations

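Of 8 genes of the pentose phosphate pathway, which makes NADPH from glucose-6-phosphate, 1 rose and 1 fell with ethanol in each fraction. That is 25% called, against 21.4% of all genes in IP and 15% in input. G6pdx, glucose-6-phosphate dehydrogenase, its first enzyme, rose by 0.12 ± 0.024 (log2, SE) in IP and 0.074 ± 0.024 in input. Pgls, the enzyme of the second step, fell, with log2 fold changes of −0.13 ± 0.032 and −0.10 ± 0.027. Of 6 gluconeogenesis and pyruvate carboxylation genes tested, only Pck2, the mitochondrial phosphoenolpyruvate carboxykinase, was called, and it rose in IP (0.14 ± 0.030). That is 16.7% of this list in IP, below the share over all genes.

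Marker lists of other cells are given beside 21.4% of all genes called in IP and 15% in input. In IP, 2 oligodendrocyte lineage markers of 10 rose and 1 fell, 1 neuronal marker of 10 fell, 1 endothelial and mural marker of 9 fell and 1 fibroblast marker of 9 rose. In input, 3 oligodendrocyte lineage markers rose and 1 fell, 2 neuronal rose and 1 fell, 1 endothelial and mural fell, and 1 fibroblast marker rose and 1 fell. Pdgfra, a receptor of oligodendrocyte precursors that is on both the oligodendrocyte lineage and the fibroblast list and is named here after its values were seen, rose by 0.47 ± 0.095 (log2, SE) in IP and 0.56 ± 0.15 in input.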
